A study of Homo sapiens with 16 samples.

Results

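The C/D box small nucleolar RNAs (snoRNAs) described here lie in introns of ribosomal protein genes and were followed through 16 small RNA libraries. The 30 members were taken by name from the snoRNA table, which holds 413 entries, and all 30 were found in it. Each matched 1 gene of that name in GENCODE v44 on GRCh38, the build named hg38 in the processing notes, and each lay in an intron of the ribosomal protein gene named as its host. There were 13 host genes, of which 7 held 2 to 4 members and 6 held a single one.

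The libraries were made from 2 human cancer lines, PC3 of the prostate and MDA-MB-231 of the breast. Of each line there were 2 libraries of the cells and 2 of extracellular vesicles (EVs) from its conditioned medium by each of 3 isolation methods. These were the aqueous two-phase system followed by dextranase (next-gen ATPS), ultracentrifugation (UC, labelled VC) and the Qiagen exoRNeasy kit, so that there were 8 groups of 2. No line carried an added allele or drug, and the medium was conditioned without serum for 72 h. Whether the members of a pair of replicates were cultured separately is not stated, and the spread behind each p-value may therefore be only technical.

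C/D box snoRNAs guide the 2′-O-methylation of ribosomal RNA (rRNA). They carry a C box near the 5′ end and a D box near the 3′ end, and a stretch of bases just upstream of the D box or of an inner D′ box pairs with rRNA, where the base opposite the fifth base before the box is methylated. In mammals most are cut out of introns after splicing of the host transcript, so that several snoRNAs can come from different introns of 1 gene, and ribosomal protein genes are among their common hosts. The questions were therefore how far snoRNAs of the same host differed in level, and whether those differences held from cells to EVs, between the lines and between isolation methods.

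Values are CPM, reads scaled to a fixed total of snoRNA reads per library, without a length term, and 1 read was worth between 0.0922 CPM and 60.1 CPM. Only reads of 18 to 35 bases were kept by the authors while the members are 64 to 104 bases long, so the values count fragments of the snoRNAs. Each value is a share, so a lower value cannot be told apart from more reads of other snoRNAs. The snoRNA reads per library ranged from 41519 to 400429 in EVs and from 3555333 to 10849128 in 3 of the cell libraries. MDA-MB-231 cell replicate 2 held 16635 reads and had SNORD35B, SNORD54, SNORD72 and SNORD73A at 0, which at 3 reads allows up to 180.3 CPM. It had 144 entries above 0, against 305 to 395 in the other cell libraries, so that most tested entries were at 0 in it. Shares and medians of all entries in comparisons with cells include these zeros, and how far they depend on them is not given here. In MDA-MB-231 EVs the libraries with the same replicate number deviated together (correlation of their deviations from the group means over all tested entries 0.223 to 0.272 for the 3 pairs of methods), and 17 of the 30 members were higher in replicate 2 by all 3 methods and 6 were lower by all 3. Of the markers of other cells, all 26 SNORD115 entries, which mark neurons, were at 0 outside PC3 cells, where they summed to 5.06 and 12.6 CPM. Of 5 epithelial miRNAs 3 were in the miRNA table and summed to 112.9 and 174.3 CPM in PC3 cells, 0 and 135.2 CPM in MDA-MB-231 cells and 0 to 398.7 CPM in EVs, all in CPM of the miRNA reads. Of 5 blood cell miRNAs only miR-486-5p was in the miRNA table. It was above 0 in all 6 MDA-MB-231 EV libraries (187.1 to 1009.1 CPM, median 321.6), against 0 and 247.9 CPM in MDA-MB-231 cells. In PC3 it was at 0 to 344.5 CPM (median 0) in EVs and 51.3 and 58.1 in cells, and its part in the results was not tested. The liver and muscle miRNAs were not in the table. Of 2 neuronal miRNAs only miR-9-5p was in it, between 0 and 472.2 CPM.

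Members whose guide letters match the same rRNA position are shown first, because they allow relatives of the same host gene to be compared. Sequences are those of GRCh38 in the snoRNA's own direction, and capitals mark the run of bases just before the D or D′ box that is complementary to rRNA. Such a run of at least 9 base pairs was found in 20 of the 30 members, and it is a match of letters, not a measured modification. The first set holds the 3 related snoRNAs of RPL4, which encodes a protein of the large ribosomal subunit. Their runs face position 1326 of 28S rRNA (RNA28SN1), and they lie on the minus strand at chr15:66503243-66503314 (intron 2), chr15:66502020-66502091 (intron 4) and chr15:66501250-66501318 (intron 6).
SNORD18A: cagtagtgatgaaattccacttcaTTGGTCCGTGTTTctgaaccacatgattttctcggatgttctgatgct
SNORD18B: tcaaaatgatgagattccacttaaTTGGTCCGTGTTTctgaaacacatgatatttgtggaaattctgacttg
SNORD18C: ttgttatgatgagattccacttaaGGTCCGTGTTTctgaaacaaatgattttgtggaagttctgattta

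The RPL3 pair, in a gene for another protein of the large subunit, faces position 468 of 18S rRNA (RNA18SN1) and lies on the minus strand at chr22:39315213-39315307 (intron 5) and chr22:39313819-39313911 (intron 7).
SNORD83A: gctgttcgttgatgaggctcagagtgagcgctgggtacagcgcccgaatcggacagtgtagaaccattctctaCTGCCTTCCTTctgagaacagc
SNORD83B: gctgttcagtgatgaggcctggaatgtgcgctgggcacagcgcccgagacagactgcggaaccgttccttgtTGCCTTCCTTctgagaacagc

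The RPL23A pair faces position 116 of 18S rRNA and lies on the plus strand at chr17:28723429-28723492 (intron 3) and chr17:28720550-28720616 (intron 1).
SNORD42A: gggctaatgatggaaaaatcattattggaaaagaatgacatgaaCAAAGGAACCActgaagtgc
SNORD42B: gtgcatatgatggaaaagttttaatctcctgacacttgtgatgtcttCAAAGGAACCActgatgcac

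The 3 snoRNAs of RPL17 are shown for their likeness outside the boxes. Their letters gave no run of 9 pairs next to a box, and here capitals mark the C box (TGATGA, searched in the first 20 bases) and the D box (CTGA, in the last 20). They lie on the minus strand at chr18:49491283-49491347 (intron 3), chr18:49491664-49491729 (intron 1) and chr18:49489245-49489308 (intron 6).
SNORD58A: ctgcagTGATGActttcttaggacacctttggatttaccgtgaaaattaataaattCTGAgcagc
SNORD58B: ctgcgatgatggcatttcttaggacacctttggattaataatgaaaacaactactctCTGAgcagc
SNORD58C: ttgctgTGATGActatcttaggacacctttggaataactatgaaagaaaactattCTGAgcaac

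All 30 members held the D box letters and 18 the C box letters on their own strand, against 70.3% of the 239 C/D entries with a single locus that held both. The members lay at a median of 89 bases from the 3′ splice site of their intron (range 60 to 1081). SNORD36A and SNORD36B of RPL7A both faced position 668 of 18S rRNA, and SNORD4A and SNORD4B of RPL23A position 121. Of the pairs shown, SNORD18B and SNORD18C were 84.7% identical in alignment, SNORD58B and SNORD58C 79.1%, SNORD83A and SNORD83B 78.9% and SNORD42A and SNORD42B 64.2%. SNORD58A and SNORD58B had 5 windows of 18 bases in common, SNORD83A and SNORD83B and likewise SNORD18B and SNORD18C had 4, and SNORD38A and SNORD38B had 2, so that the shortest reads from these windows cannot be told apart. The entry snoU18 held the same reads as SNORD18B in all 16 libraries, and a family entry named SNORD38, with up to 631.8 CPM, was counted apart from SNORD38A and SNORD38B. Every member also had windows of 18 bases that were repeated in the genome. They were 28 of 47 windows in SNORD42A, 24 of 52 in SNORD38B and 23 of 49 in SNORD58B. In SNORD38A they were 18 of 53 and in SNORD58A 17 of 48, against 2 of 82 in SNORD16, the lowest share. How far the results depend on reads from such windows was not tested. The values of the members are uncertain to that extent.

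Levels, taken as counts of fragments, spanned more than 3 orders of magnitude. Per 10 bases of snoRNA, SNORD18A averaged 4974 CPM ± 1339 (SD, n = 16 libraries), SNORD43 of RPL3 3784 ± 1047, SNORD101 of RPS12 2967 ± 1258, SNORD58A 2514 ± 1063 and SNORD102 of RPL21 980 ± 354. At the other end were SNORD35B with 10.5 ± 6.78, SNORD54 of RPS20 with 6.94 ± 4.48 and SNORD72 of RPL37 with 2.77 ± 2.004. The standard deviations overlap between most neighbours in this order, which holds different lines and materials. The 30 members together held 17.8% and 17.3% of the snoRNA reads in the PC3 cell libraries, 20.5% and 19.1% in the MDA-MB-231 cell libraries and 11.7% to 16.1% in EVs. No EV library reached the lowest cell library.

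**Figure D1:**
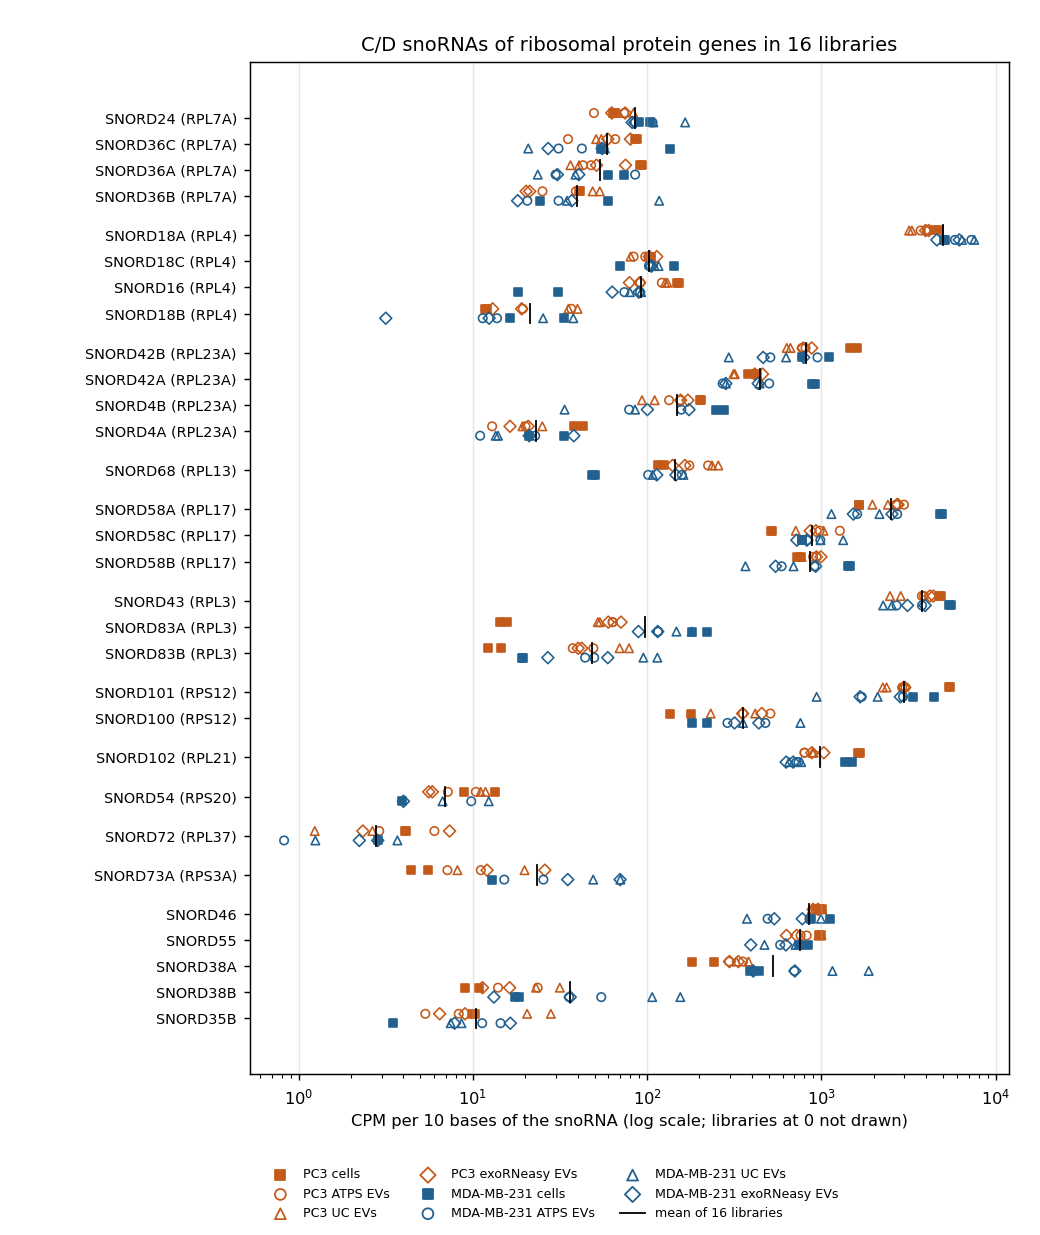
Level of each of the 30 snoRNAs in CPM per 10 bases (log scale), with 1 point per library and the members grouped by host gene, with 5 members whose host is not shown at the bottom. Filled squares are cells, open symbols are EVs by method, orange is PC3, blue is MDA-MB-231, and the vertical bar is the mean of the 16 libraries; SNORD18A exceeded SNORD18B of the same gene in every library.

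Members of 1 host did not have the same counts of fragments per length. How far these counts follow the levels of the whole snoRNAs was not tested. In RPL4, SNORD18A exceeded SNORD18B 233-fold by the mean CPM per 10 bases, and it held 92.5% to 97.7% of the RPL4 members' reads per length in every library. In RPL3, SNORD43 exceeded SNORD83B 78.3-fold and held 89.6% to 99.4%. SNORD42B exceeded SNORD4A 35.5-fold in RPL23A, and SNORD101 exceeded SNORD100 8.36-fold in RPS12. The members of RPL17 and of RPL7A were closer, with ratios of 2.94 and 2.17 between the highest and the lowest.

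Between EVs and cells, 19 of the 30 members changed, 10 of them higher and 9 lower in EVs (limma, adjusted p under 0.05), where 44.5% of all 357 tested entries were called. Entries called lower were 6.44% of all tested and those called higher 38.1%. The median log2 fold change of the 30 members was -0.00 and that of all entries 0.95. These shares and the median of all entries include the many entries at 0 in MDA-MB-231 cell replicate 2. All 212 tested C/D entries had a median of 0.23, with 71 higher and 23 lower, so that 9 of those 23 were members. In PC3 the EV libraries of 20 members did not overlap the cells, 10 above and 10 below, and in MDA-MB-231 those of 14, 6 above and 8 below, where 39.5% of all entries did not overlap in either line. The split of calls moved with the scaling. It was 1 higher and 14 lower after quantile normalization, and centring on the entries above 0 in all libraries gave 2 and 17, edgeR with TMM 4 and 17, and DESeq2 8 and 13. In that order the median of the members moved by -0.90, -0.75, -0.46 and -0.10 on the log2 scale. Each moved the members down, so that lower calls were more easily kept than higher ones. SNORD102, SNORD101, SNORD42A, SNORD42B and SNORD4B were called lower in every alternative and with any library left out, and no member was called higher in all of them. Ratios between members of 1 host are not moved by a single factor per library, but quantile normalization, which is no such factor, moves them. They are given with each host, and their values after quantile normalization were added after seeing the data.

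**Figure D2:**
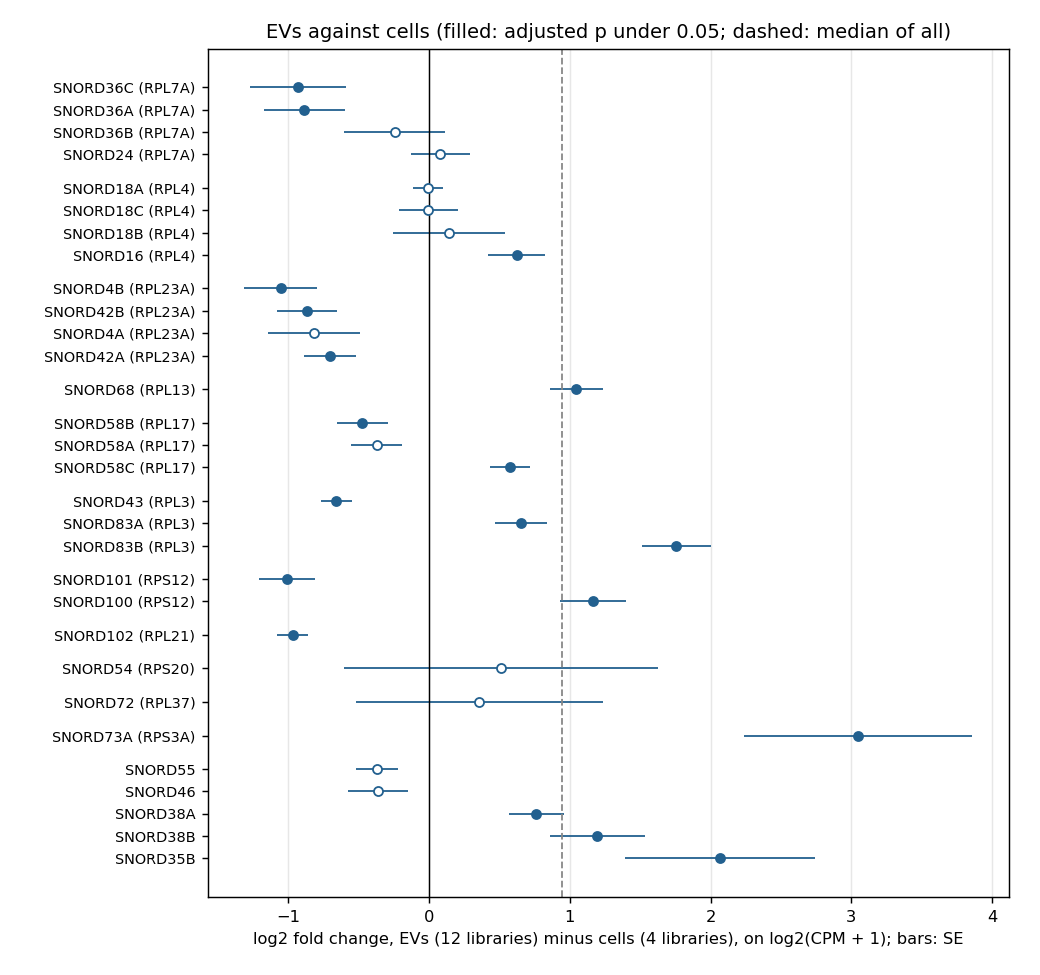
Log2 fold change of each member in EVs (12 libraries) against cells (4 libraries) on the log2(CPM + 1) scale, grouped by host gene, with 5 members whose host is not shown at the bottom; bars are standard errors, filled points had a limma adjusted p under 0.05, and the dashed line is the median of all tested entries at 0.95. In RPL3, RPS12 and RPL17 members of the same host lie on both sides of 0; the points of SNORD58C, SNORD16, SNORD83A, SNORD38B and SNORD35B fall below 0 under at least 1 other scaling.

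Some of these calls rested on few libraries. SNORD73A and SNORD35B were at 0 in MDA-MB-231 cell replicate 2, and without that library the log2 fold change of SNORD73A went from 3.05 to 1.45 (adjusted p = 0.0125) and that of SNORD35B from 2.06 to 0.82 (adjusted p = 0.145). SNORD35B, SNORD36A and SNORD16 lost their calls without PC3 cell replicate 1, PC3 cell replicate 2 or MDA-MB-231 cell replicate 2, with adjusted p up to 0.145, 0.0914 and 0.162. SNORD38B lost its call without PC3 cell replicate 2 (adjusted p = 0.0606) and SNORD83A without PC3 cell replicate 1 (adjusted p = 0.0653). SNORD36C lost it without any 1 of 9 libraries (either PC3 cell or PC3 UC library, and replicate 1 of PC3 ATPS, PC3 exoRNeasy, MDA-MB-231 cells, MDA-MB-231 ATPS and MDA-MB-231 exoRNeasy; adjusted p up to 0.186). SNORD58B lost it without any 1 of 12 (all PC3 libraries, both MDA-MB-231 cell libraries, and replicate 1 of MDA-MB-231 ATPS and exoRNeasy; adjusted p up to 0.141).

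SNORD43 and SNORD83B of RPL3 moved in opposite directions, in calls that were absent after quantile normalization. SNORD43, from the first intron of RPL3 (chr22:39319050-39319113, minus strand), held most of the reads per length of this host's members. It was at 31050.3 and 30344 CPM in the PC3 cell libraries and at 15874, 24537 and 28139 (lowest, median and highest of 6) in PC3 EVs. In MDA-MB-231 it was at 35699 and 34506 CPM in cells and at 14504, 18659 and 25258 in EVs. No EV library reached the cells of its line, and SNORD43 was lower in EVs by a log2 fold change of -0.66 (SE 0.11, adjusted p = 0.000179), which was not called after quantile normalization.

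SNORD83B was at 135 and 114 CPM in PC3 cells and at 349, 425 and 733 in PC3 EVs, and at 177 and 180.3 CPM in MDA-MB-231 cells and 251, 508 and 1066 in their EVs. Its EV libraries were all above the cells of the same line (log2 fold change 1.76, SE 0.25, adjusted p = 3.2e-05), again with no call after quantile normalization. MDA-MB-231 cell replicate 2 held 3 reads of it. SNORD83A, its relative with the same guide, went different ways in the lines. In PC3 it was at 137 and 149 CPM in cells and 495, 586 and 674 in EVs, all above the cells, while in MDA-MB-231 it was at 1717 and 2104 CPM in cells and 848, 1099 and 1714 in EVs, all below them. The log2 difference between EVs and cells was 1.996 in PC3 and -0.69 in MDA-MB-231, and the difference between these was 2.68 (SE 0.36, adjusted p = 6.05e-05). Over both lines SNORD83A had a log2 fold change of 0.65, which became -0.16 after quantile normalization and -0.10 after centring.

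As ratios within the host, SNORD43 exceeded SNORD83A per length 303-fold and 337-fold in the PC3 cell libraries, 24.3-fold and 30.9-fold in the MDA-MB-231 cell libraries, 47.6-fold to 73.4-fold in PC3 EVs and 14.1-fold to 35.02-fold in MDA-MB-231 EVs. Between the lines the ratio of SNORD43 to SNORD83A was higher in PC3 by 3.53 in cells (SE 0.26, adjusted p = 9.08e-06) and by 1.28 in EVs (SE 0.15, adjusted p = 0.00076). Averaged over the lines it fell from cells to EVs by 1.31 on the log2 scale (SE 0.15, limma over 136 within-host pairs, adjusted p = 0.000121). Every PC3 EV library was below the PC3 cells. In MDA-MB-231 the ranges overlapped, with medians of 27.6 in cells and 28.06 in EVs, so no fall was seen there. The ratio of SNORD43 to SNORD83B fell by 2.41 (SE 0.26, adjusted p = 9.71e-05). After quantile normalization these changes were -0.075 (adjusted p = 0.776) and -0.61 (adjusted p = 0.155), and neither was called. SNORD83A and SNORD83B were near the same level in PC3 cells, with ratios of 0.99 and 1.28, while SNORD83A exceeded SNORD83B 9.47-fold and 11.4-fold in MDA-MB-231 cells and 1.29-fold to 4.27-fold (median 2.11) in their EVs. In PC3 EVs the ratio was 0.66 to 1.76 (median 1.35), which overlapped the PC3 cells. The lines differed in this ratio in cells by -3.20 (SE 0.46, adjusted p = 0.000963). Averaged over the lines it fell from cells to EVs by 1.10 (adjusted p = 0.0114), with a lower range in EVs in MDA-MB-231 and not in PC3. This was not called without PC3 cell replicate 2 (adjusted p = 0.0663) or after quantile normalization (-0.54, adjusted p = 0.0915).

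**Figure D3:**
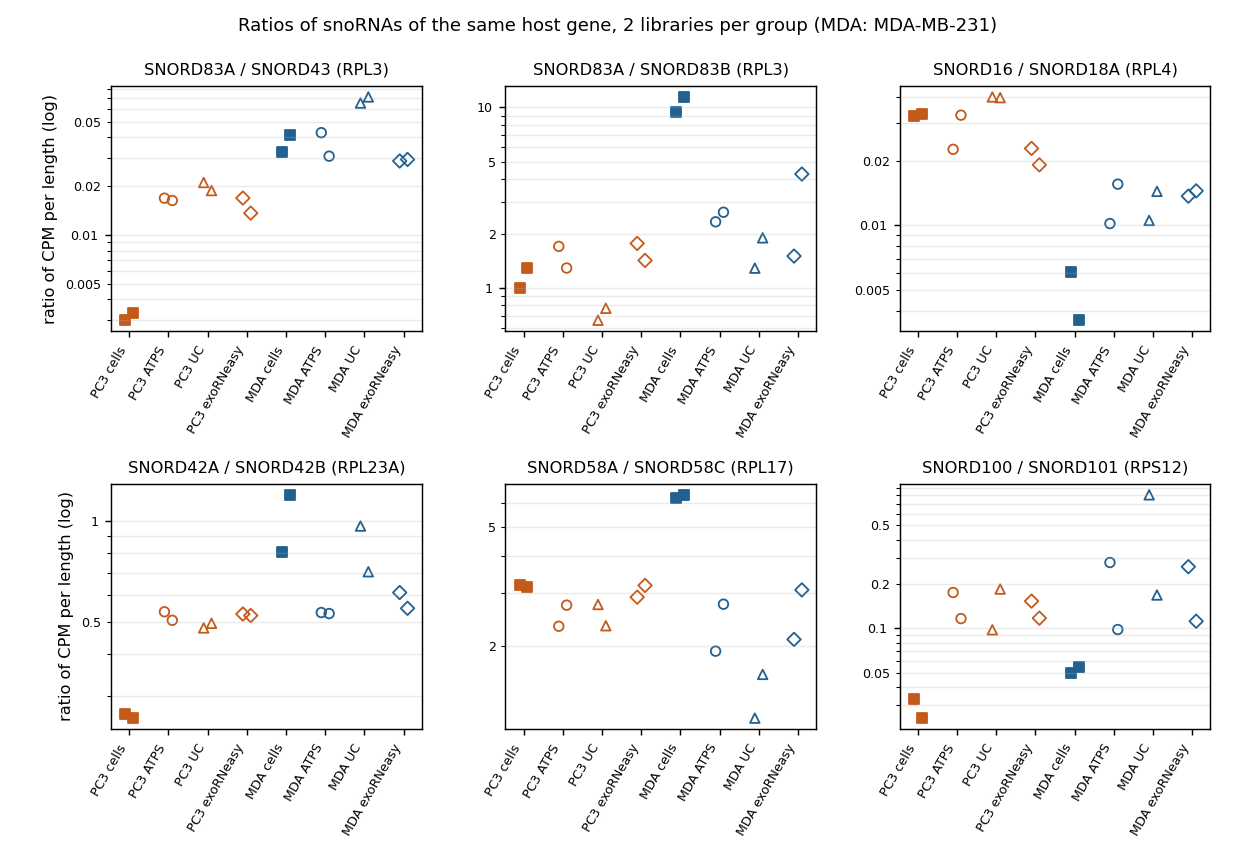
Ratio of the CPM per length of 6 pairs of snoRNAs from the same host gene (log scales), 1 point per library and 2 per group; filled squares are cells and open symbols EVs, orange is PC3 and blue MDA-MB-231. The ratio of SNORD83A to SNORD43 is lowest in PC3 cells, that of SNORD16 to SNORD18A lowest in MDA-MB-231 cells, and that of SNORD58A to SNORD58C highest in MDA-MB-231 cells.

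In RPL17, a gene for a protein of the large subunit, SNORD58A and SNORD58B differed between the lines and SNORD58C changed otherwise. SNORD58A was at 10700.5 and 10704 CPM in PC3 cells and 12783, 17552 and 19382 in PC3 EVs, all above the cells. In MDA-MB-231 it was at 31146 and 31921 CPM in cells and 7432, 12231 and 17731 in EVs, all below. The difference between EVs and cells was 0.64 in PC3 and -1.38 in MDA-MB-231 (difference 2.02, SE 0.36, adjusted p = 0.000751). SNORD58B followed with 0.23 and -1.17 (difference 1.40, SE 0.36, adjusted p = 0.0119), a call lost without PC3 cell replicate 2 or MDA-MB-231 cell replicate 2 (adjusted p up to 0.0608).

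SNORD58C was at 3295 and 3333 CPM in PC3 cells and 4568, 6116 and 8181 in PC3 EVs, and at 4930.2 and 4929 CPM in MDA-MB-231 cells and 4635, 5828 and 8551 in their EVs. It was above the cells in every PC3 EV library, while the ranges overlapped in MDA-MB-231. Its log2 fold change of 0.58 (SE 0.14, adjusted p = 0.00376) became -0.17 after centring. Against SNORD58C the relatives fell from cells to EVs, SNORD58A by 0.95 on the log2 scale (SE 0.17, adjusted p = 0.00288) and SNORD58B by 1.05 (SE 0.18, adjusted p = 0.00192). The second call held in all 9 alternatives run on ratios and with any library left out, and the first was lost only after quantile normalization (-0.56, adjusted p = 0.0878). SNORD58A exceeded SNORD58C per length 3.16-fold and 3.20-fold in PC3 cells and 6.22-fold and 6.38-fold in MDA-MB-231 cells, against 2.33-fold to 3.19-fold and 1.16-fold to 3.08-fold in their EVs. SNORD58A and SNORD58B kept a ratio of 2.15 to 3.35 in the 16 libraries.

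The 4 snoRNAs of RPL23A, whose protein is part of the large subunit, were all at lower values in EVs, and 3 were called. SNORD42B was at 9796 and 10803 CPM in PC3 cells and 4246, 5230.0 and 5906 in PC3 EVs, and at 7405 and 5170 CPM in MDA-MB-231 cells and 1973, 3813 and 6370 in their EVs. The PC3 EV libraries were all below the cells, and those of MDA-MB-231 overlapped them. SNORD42B was lower by -0.87 (SE 0.21, adjusted p = 0.00412), SNORD4B by -1.05 (SE 0.26, adjusted p = 0.00384) and SNORD42A by -0.70 (SE 0.19, adjusted p = 0.00651), while SNORD4A had -0.82 without a call. No pair ratio within RPL23A was called between EVs and cells. SNORD42B was higher in PC3 cells than in MDA-MB-231 cells without overlap, but was not called between the lines. SNORD42A, lower in PC3 cells, was the only member of this host called between the lines in cells. It was at 2739 and 2416 CPM in PC3 cells against 5684 and 5891 in MDA-MB-231 cells. In EVs it was at 2006 to 2943 CPM in PC3 against 1739 to 3218 in MDA-MB-231. Its difference between EVs and cells was -0.06 in PC3 and -1.34 in MDA-MB-231 (difference 1.27, SE 0.37, adjusted p = 0.0255), not called without either PC3 cell library or MDA-MB-231 cell replicate 2 (adjusted p up to 0.137). The ratio of SNORD42A to SNORD42B per length was 0.27 and 0.26 in PC3 cells, 0.80 and 1.19 in MDA-MB-231 cells and 0.48 to 0.96 in EVs, and in cells it differed between the lines by -1.90 (SE 0.26, adjusted p = 0.00086). In cells the ratio of SNORD42A to SNORD4A also differed (-1.78, adjusted p = 0.00967), but not without either PC3 cell library (adjusted p up to 0.0716) or after quantile normalization (-0.51, adjusted p = 0.628).

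In RPL4 the abundant SNORD18A was not called between EVs and cells (log2 fold change -0.01, SE 0.10), nor were SNORD18C (-0.00) and SNORD18B (0.14). These values average the lines. SNORD18A was at 33912 and 32043 CPM in PC3 cells and 22989, 27649 and 29767 in PC3 EVs, all below the cells. In MDA-MB-231 it was at 36892 and 36369 CPM in cells and 33174, 45397 and 54394 in EVs, which overlapped. Its change from cells to EVs was not called different between the lines. SNORD16, from intron 3 of the same gene (chr15:66502812-66502910, minus strand), was at 1509 and 1462 CPM in PC3 cells and 785, 1055 and 1295 in PC3 EVs, all below the cells. In MDA-MB-231 it was at 307 and 180.3 CPM in cells, the latter on 3 reads, and 625, 839 and 916 in EVs, all above. Its difference between EVs and cells was -0.52 in PC3 and 1.76 in MDA-MB-231 (difference -2.28, SE 0.40, adjusted p = 0.00072), which was not called after quantile normalization. Over both lines its value of 0.62 (adjusted p = 0.0216) became -0.49 after quantile normalization, -0.13 after centring and -0.044 with edgeR. The ratio of SNORD16 to SNORD18A per length was 0.0332 and 0.0324 in PC3 cells and 0.00605 and 0.00361 in MDA-MB-231 cells, and 0.0192 to 0.0398 in PC3 EVs and 0.0102 to 0.0156 in MDA-MB-231 EVs. This ratio was higher in PC3 than in MDA-MB-231 by 2.81 in cells (SE 0.35, adjusted p = 0.000391) and by 1.12 in EVs (SE 0.20, adjusted p = 0.00584), and both calls held in all 9 alternatives run on ratios and with any library left out.

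The RPS12 snoRNAs moved apart between cells and EVs. SNORD101, from intron 3 of this small-subunit gene (chr6:132815307-132815379, plus strand), was at 39570 and 40156 CPM in PC3 cells and 16474, 21487 and 22231 in PC3 EVs, and at 32328 and 24406 CPM in MDA-MB-231 cells and 6868, 13912 and 21506 in their EVs. SNORD100, from intron 4 (chr6:132816802-132816877), whose guide faces position 436 of 18S rRNA, was at 1363 and 1029 CPM in PC3 cells and 1764, 2936 and 3881 in PC3 EVs, and at 1672 and 1383 CPM in MDA-MB-231 cells and 2200 to 5769 in their EVs. In both lines every EV library was below the cells for SNORD101 and above them for SNORD100. SNORD101 was lower in EVs by 2.01-fold (log2 fold change -1.01, SE 0.20, adjusted p = 0.000738) and SNORD100 higher by 2.24-fold (1.16, SE 0.23, adjusted p = 0.000809), the second without a call after quantile normalization or centring. The ratio of SNORD100 to SNORD101 rose from cells to EVs by 2.17 on the log2 scale (SE 0.45, adjusted p = 0.00591), a call that held with any library left out but not after quantile normalization (1.44, adjusted p = 0.0654).

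SNORD38A reached its highest values in MDA-MB-231 EVs. SNORD38A was at 1695 and 1264 CPM in PC3 cells and 2071, 2309 and 2675 in PC3 EVs. In MDA-MB-231 it was at 2712 and 3066 CPM in cells, 4899 and 2873 with ATPS, 13103 and 8114 with UC and 4938 and 2849 with exoRNeasy. All PC3 EV libraries were above the cells, and in MDA-MB-231 the replicate 2 libraries of ATPS and exoRNeasy lay between the cell libraries. Against cells SNORD38A had a log2 fold change of 0.76 (SE 0.20, adjusted p = 0.00547), with no call after quantile normalization, after centring or with edgeR. That of SNORD38B was 1.20 (SE 0.34, adjusted p = 0.00933) and became -0.46 after quantile normalization. SNORD38B had 2 reads in MDA-MB-231 cell replicate 2 and as few as 4 in EV libraries.

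SNORD46 and SNORD55 had -0.36 and -0.37 in EVs against cells and were not called. The family entry SNORD38 had 5.90 and 8.44 CPM in PC3 cells and 37.4 to 127.4 CPM in PC3 EVs, on 2 to 12 reads. In MDA-MB-231 it had 13.3 and 0 CPM in cells and 91.2 to 631.8 CPM in EVs. Its reads were not added to either member.

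The RPL7A members lay closest together in level of the 7 hosts with several. SNORD36A was at 685 and 664 CPM in PC3 cells and 265, 331 and 549 in PC3 EVs, with every EV library below the cells. In MDA-MB-231 it was at 435 to 541 CPM in cells and 172 to 624 in EVs, which overlapped. SNORD36A (-0.88, SE 0.29, adjusted p = 0.0219) and SNORD36C (-0.93, SE 0.34, adjusted p = 0.0377) were lower in EVs, while SNORD24 had 0.08 and SNORD36B -0.24 without a call. SNORD36A and SNORD36B, which face the same position of 18S rRNA, had a ratio that was not called (-0.64, SE 0.34, adjusted p = 0.177). The ratio of SNORD36B to SNORD36C rose from cells to EVs by 0.69 (SE 0.14, adjusted p = 0.00573), without a call after quantile normalization (0.42, adjusted p = 0.114), and was lower in PC3 EVs than in MDA-MB-231 EVs by -0.73 (SE 0.14, adjusted p = 0.009).

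Of the members that were alone in their host, SNORD102 of RPL21 (chr13:27255064-27255135, plus strand) had the smallest adjusted p of the 30 between EVs and cells. It was at 11730 and 12008 CPM in PC3 cells and 5764, 6390 and 7448 in PC3 EVs, and at 9838 and 10760 CPM in MDA-MB-231 cells and 4527, 5079 and 5519 in their EVs. All 12 EV libraries were below all 4 cell libraries (log2 fold change -0.97, SE 0.11, adjusted p = 3.45e-06). SNORD68 of RPL13 was at 1054 and 968 CPM in PC3 cells and 1177, 1676 and 2155 in PC3 EVs, and at 404 and 421 CPM in MDA-MB-231 cells and 853, 1093 and 1359 in their EVs. It was higher in EVs by 1.05 (SE 0.19, adjusted p = 0.000344), without a call after quantile normalization, after centring or with edgeR. SNORD73A of RPS3A was at 36.0 and 28.8 CPM in PC3 cells and 46.5, 75.4 and 168 in PC3 EVs, with 2 to 13 reads, and at 83.6 and 0 CPM in MDA-MB-231 cells and 98.5, 274 and 457 in their EVs. SNORD54 and SNORD72 reached at most 89.7 and 58.9 CPM and were called in no comparison.

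Within hosts, 12 of the 31 member pairs were called between EVs and cells, where 32.4% of all 136 within-host pairs were. In cells 8 of 31 were called between the lines, against 11.0% of all pairs, and in EVs again 8, against 16.2% of all pairs. Pairs of 1 host share members and are not independent. All 8 called in cells held SNORD83A, SNORD42A, SNORD42B or SNORD16. Of the 12, 8 and 8 calls, 1, 5 and 5 held in all 9 alternatives run on ratios, quantile normalization included, and with any library left out.

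Between the lines, PC3 and MDA-MB-231 cells differed in 7 members, 3 higher and 4 lower in PC3, where 22.4% of all entries were called, 20.2% higher and 2.24% lower. The shares of all entries include the many at 0 in MDA-MB-231 cell replicate 2. The split was 1 higher and 8 lower after quantile normalization, 1 and 12 after centring, 1 and 7 with edgeR and 2 and 7 with DESeq2. SNORD83A was 13.2-fold lower in PC3 cells (log2 fold change -3.73, SE 0.32, adjusted p = 5.04e-07), SNORD58A was 2.95-fold lower (-1.56, SE 0.31, adjusted p = 0.00155) and SNORD16 was 6.29-fold higher (2.65, SE 0.35, adjusted p = 3.73e-05). These 3 were called in every alternative and with any library left out. SNORD58B (-0.96), SNORD42A (-1.17), SNORD68 (1.29) and SNORD35B (3.99) were called too. SNORD68 was not called without either PC3 cell library (adjusted p up to 0.0895), nor after quantile normalization (0.042, adjusted p = 0.942), after centring (0.41, adjusted p = 0.451) or with edgeR (0.92, adjusted p = 0.0823). SNORD35B was also not called with a pseudocount of 100, under any of the 4 other scalings or tools, or without either replicate of the MDA-MB-231 EVs. Of leave-one-out fits, SNORD42A and SNORD35B were not called without either PC3 cell library or MDA-MB-231 cell replicate 2 (adjusted p up to 0.12 and 0.233). SNORD58B was not called without any 1 of the 8 PC3 and 2 MDA-MB-231 cell libraries (adjusted p up to 0.178). SNORD35B was at 0 in MDA-MB-231 cell replicate 2, and without that library its log2 fold change was 1.51.

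Between PC3 EVs and MDA-MB-231 EVs, 8 members differed, 3 higher and 5 lower in PC3, where 33.3% of all entries were called, 18.2% higher and 15.1% lower. The split was 4 and 6 after quantile normalization, 0 and 5 after centring, 0 and 6 with edgeR and 2 and 6 with DESeq2. SNORD18A was at 22989 to 29767 CPM in PC3 EVs and 33174 to 54394 in MDA-MB-231 EVs, without overlap (-0.75, SE 0.10, adjusted p = 9.78e-05). SNORD38A (-1.18, adjusted p = 0.000532) and SNORD83A (-1.04, adjusted p = 0.000777) were lower in PC3 EVs as well, and these 3 were called in every alternative and with any library left out. SNORD38B had -1.40 and lost its call without the 3 replicate 1 libraries of MDA-MB-231 EVs. The other 4 were SNORD24 (-0.59), SNORD102 (0.34), SNORD55 (0.48) and SNORD68 (0.59), and each lost its call without any 1 of 5 to 9 libraries, with adjusted p up to 0.103. With the replicate number as a block within MDA-MB-231 EVs, chosen after seeing the data, the count was 15, and 11 in cells.

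**Figure D4:**
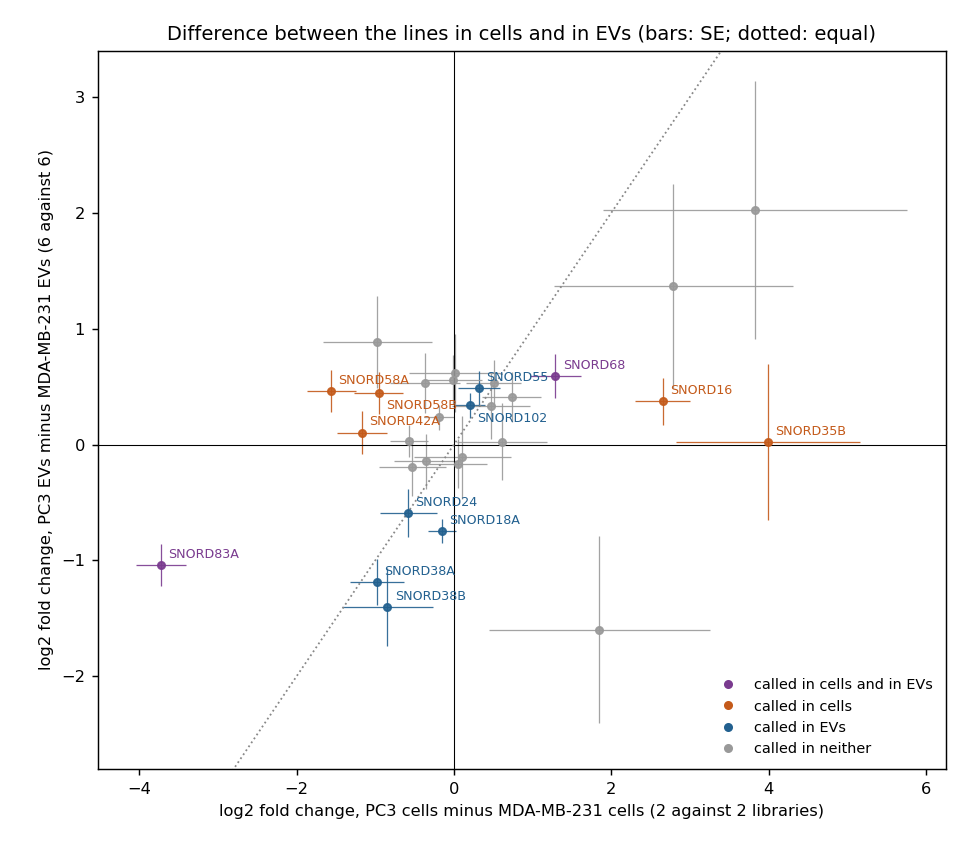
Log2 fold change between PC3 and MDA-MB-231 for each member, in cells on the horizontal axis and in EVs on the vertical axis, with standard errors; colours give where the limma adjusted p was under 0.05, and the dotted line marks equal differences. SNORD83A lies at -3.73 and -1.04 and SNORD16 at 2.65 and 0.37; the grey points with long bars are SNORD54, SNORD72 and SNORD73A, which were at 0 in 1 or more libraries.

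The change from cells to EVs itself differed between the lines in 5 members, against 17.1% of all entries. In PC3 minus MDA-MB-231 it was higher in 4 members and lower in 1, against 2.52% and 14.6% of entries, and 5 and 0 after quantile normalization, 10 and 1 after centring, 5 and 1 with edgeR and 6 and 1 with DESeq2. Here too the shares of entries include the many at 0 in MDA-MB-231 cell replicate 2. The 5 were SNORD83A, SNORD58A, SNORD58B, SNORD42A and SNORD16, whose values are given with their hosts. With the replicate block within MDA-MB-231 EVs this count was 10. SNORD83A and SNORD58A were called in every alternative and with any library left out.

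Among isolation methods, next-gen ATPS and UC EVs gave no call among the members or among the 357 entries (0.0% by limma, 6 members at an unadjusted p under 0.05). edgeR called none of the members and DESeq2 called 6, and with the replicate block within MDA-MB-231 EVs limma called 8. Next-gen ATPS and exoRNeasy EVs differed in no member, where 3.36% of entries were called, 1.96% higher and 1.4% lower. No member had an unadjusted p under 0.05, edgeR and DESeq2 called none, and the block gave 1.

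UC and exoRNeasy EVs differed in 5 members, 4 higher and 1 lower with UC, where 13.7% of entries were called, 10.1% higher and 3.64% lower. The split was 2 and 1 after quantile normalization, 1 and 3 after centring, 5 and 2 with edgeR and 3 and 7 with DESeq2. With the replicate block within MDA-MB-231 EVs the count was 12. SNORD83B was at 733 and 647 CPM with UC in PC3 and at 1066 and 886 in MDA-MB-231, against 374 and 392 and 554 and 251 with exoRNeasy, so that all 4 UC libraries were above all 4 exoRNeasy libraries (log2 fold change 1.11, SE 0.30, adjusted p = 0.0311). SNORD18B lay at 182 to 287 CPM with UC and 22.8 to 137 with exoRNeasy, also without overlap (1.76, SE 0.49, adjusted p = 0.0311), on 1 to 10 reads per exoRNeasy library. SNORD43 lay at 14504 to 18299.5 CPM with UC and 20012 to 28139 with exoRNeasy (-0.62, SE 0.14, adjusted p = 0.0101). SNORD38B (1.77, adjusted p = 0.0158) and SNORD38A (0.81, adjusted p = 0.0407) were higher with UC, with overlap between the methods. SNORD38B had 4 to 28 reads per exoRNeasy library. SNORD43 lost its call without PC3 UC replicate 1 (adjusted p = 0.0618), and SNORD38B without that library or PC3 exoRNeasy replicate 2 (adjusted p up to 0.0829). SNORD18B and SNORD83B lost theirs without any 1 of 8 libraries and SNORD38A without any 1 of 10 (adjusted p up to 0.101, 0.101 and 0.13), among them every PC3 cell, UC and exoRNeasy library.

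Other snoRNAs of ribosomal protein genes set these counts in context. Of 9 further C/D snoRNAs in such genes, 6 were higher and 0 lower in EVs than in cells (limma; 6 at an unadjusted p under 0.05), with a median log2 fold change of 1.87. Of 16 H/ACA snoRNAs in ribosomal protein genes, which guide pseudouridylation of rRNA, 15 were in the table, and 11 were higher and 0 lower, with a median of 3.55. Over all 133 tested H/ACA entries 59 were higher and 0 lower, with a median of 1.99. Some of these entries were at 0 in MDA-MB-231 cell replicate 2. All 23 entries called lower in EVs were C/D entries. Between PC3 and MDA-MB-231 cells, 1 of the 9 C/D and 3 of the 15 H/ACA snoRNAs were called, all higher in PC3, and between UC and exoRNeasy EVs 5 of the 9 and 0 of the 15 (limma; 6 of the 15 at an unadjusted p under 0.05).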

How the data were processed

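Small RNA of PC3 and MDA-MB-231 cells and of their EVs was sequenced by the authors (NEBNext small RNA libraries, Illumina NextSeq), who discarded reads under Q20 over 4 bases and reads outside 18 to 35 bases. Alignment was with STAR against hg38 and annotation with COMPSRA (versions not given in the sources used here). Reads mapping to several places were kept by the authors with more weight on unique ones. The deposited values are named TPM but are CPM within the snoRNA class and within the miRNA class, as 100% of values were whole multiples of 1 read within 0.1 read in every library, and the sums are 1000000. The test planned for TPM was kept. For MDA-MB-231 the labels give 5% FBS and the paper 10%. Depth was 16635 to 10849128 snoRNA reads, and floors cover counting error only. The circRNA table was not used.

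Members, gene lists and tests were chosen with earlier results of these data known. All 30 members were named, by host, with fold changes for those called in a comparison. limma 3.58.1 (R 4.3.3, trend, robust) was fitted to log2(CPM + 1) of 357 entries with at least 1 CPM in at least 2 libraries, with 8 group means. p-values were adjusted by Benjamini-Hochberg over all entries, threshold 0.05. The added 1 CPM draws the fold changes of low entries that are above 0 in all libraries towards 0. A low entry at 0 in a shallow library can have its fold change overstated instead. SNORD73A and SNORD35B were such entries in MDA-MB-231 cell replicate 2. Log2 ratios of 136 pairs of entries from hosts with 2 to 10 of them (54 hosts) were fitted likewise without trend. edgeR 4.0.16 and DESeq2 1.42.0 were run on recovered reads as alternatives, with other pseudocounts, filters, scalings, a replicate block and each library left out. The fit was tested on simulated data for EVs against cells (352 entries): it recovered 17 of 50 entries changed 2-fold, 40 of 50 at 4-fold, 43 of 48 at 8-fold and 47 of 50 at 16-fold, and called 12 of 154 unchanged ones. Sequences and coordinates are from GENCODE v44 and GRCh38. Some host genes, sequences and within-host results are not reported here.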

Additional observations from a re-analysis of the deposited data

Results flagged for a closer look

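The change from cells to EVs differed between PC3 and MDA-MB-231, by the interaction term of the same limma fit, in 5 members. The log2 difference of PC3 minus MDA-MB-231 was 2.68 for SNORD83A, 2.02 for SNORD58A, 1.40 for SNORD58B, 1.27 for SNORD42A and -2.28 for SNORD16. For SNORD83A, SNORD58A and SNORD16 the EV libraries lay on opposite sides of their cells in the lines, in 6 of 6 libraries of each line. For SNORD83A in MDA-MB-231 this was by a narrow margin, with the highest EV library at 1713.7 CPM and the lowest cell library at 1717.2 CPM. In cells alone, SNORD83A differed between the lines by -3.73, SNORD58A by -1.56 and SNORD16 by 2.65, on 2 libraries of each line, and in EVs SNORD83A differed by -1.04. Groups of 2 libraries are too small for a test of single outlying libraries.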

How the results depend on the processing

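Of 72 single results, 44 member fold changes and 28 pair ratios called at an adjusted p under 0.05, member values were recomputed under 28 alternatives and ratios under 25 (1929 values in all), of which 1672 kept direction and call, 246 kept the direction without the call and 11 reversed. Centring leaves ratios as they are, and edgeR and DESeq2 were not run on ratios. The reversed values were all of EVs against cells. Quantile normalization gave SNORD35B -0.46, SNORD16 -0.49, SNORD38B -0.46 and SNORD83A -0.16, centring gave SNORD58C -0.17, SNORD16 -0.13 and SNORD83A -0.10, and edgeR gave SNORD16 -0.044. After quantile normalization, added for ratios after seeing the data, the change of SNORD16 to SNORD18A became -0.63 (adjusted p = 0.0194) and those of 2 further pairs -0.19 and -0.13, and 9, 6 and 10 pairs were called.

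For the difference between the lines in the change from cells to EVs (5 members in the fit as reported) centring gave 11. For ATPS against UC (0) a pseudocount of 100 gave 2, entries above 0 in all 16 libraries 1 and DESeq2 6. For UC against exoRNeasy (5) quantile normalization gave 3 and DESeq2 10. Between the lines centring gave 13 in cells (7) and 5 in EVs (8). For pairs between EVs of the lines (8) a pseudocount of 100 and entries above 0 in all 16 libraries each gave 14. The cause was not tested.

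Leaving out 1 library at a time, with a lone library assumed to vary like the other groups, gave 13 to 22 members for EVs against cells, 3 to 8 for its difference between the lines, 0 to 0 for ATPS against UC and for ATPS against exoRNeasy, 0 to 7 for UC against exoRNeasy, 3 to 9 between cells and 4 to 15 between EVs of the lines. Pairs ranged from 6 to 16 for EVs against cells, 5 to 10 between cells and 5 to 11 between EVs.

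The replicate numbers did not pair the libraries in general. The correlation of deviations between same-numbered libraries was -0.213 to 0.273 over 28 pairs of groups (median 0.0266). The replicate block over all groups gave 21, 5, 0, 0, 6, 8 and 12 members in the order above and 12, 9 and 9 pairs, and ended no call. A block within the MDA-MB-231 EV libraries, chosen after seeing the data because their 3 correlations were 0.223 to 0.272, gave 23, 10, 8, 1, 12, 11 and 15 members and 15, 12 and 15 pairs. Without the 3 replicate 1 libraries of MDA-MB-231 EVs, likewise chosen later, the counts were 17, 9, 4, 0, 10, 10 and 5 members, and without the 3 of replicate 2 they were 22, 11, 7, 2, 10, 10 and 18 members and, for pairs between EVs of the lines, 17. The number of reads limits SNORD35B, SNORD54, SNORD72 and SNORD73A, which lie below the 180.3 CPM that 3 reads are worth in MDA-MB-231 cell replicate 2 in most libraries. It also limits SNORD18B, SNORD38B and SNORD4A, whose medians over the 16 libraries were 127.6, 143.1 and 150.2 CPM. Their lowest counts were 1, 2 and 4 reads.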
